A study of Rattus norvegicus with 3 samples.

Results

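The genes described here are 10 genes of endoplasmic reticulum (ER) stress and of the integrated stress response (ISR), taken by symbol from a table of 18425 genes measured in the neonatal rat retina. They are Ddit3, Atf4, Hspa5, Xbp1, Trib3, Chac1, Asns, Herpud1, Dnajb9 and Ern1. All 10 were found, all 10 had a mean of at least 10 reads over the libraries, and all 10 had whole-number read counts in the 3 libraries. Wild-type Sprague Dawley rats received an intravitreal injection of 1 µl at P1 (postnatal day 1), and whole retinas were collected at P4. The 3 libraries were retinas given citrate buffer of pH 4.5 (Buffer), saline (Saline), or 10 µg of streptozotocin (STZ), an alkylating glucosamine-nitrosourea made up in the same citrate buffer. There was 1 library per condition and the number of animals behind each library is not given in the sources used here, so the spread between animals is unknown. In the study's examinations of the eye, an animal given STZ in 1 eye received citrate buffer in the other, and whether the sequenced Buffer and STZ retinas shared animals in this way, while the Saline retinas did not, is not given in the sources used here. No difference below has a replicate check, and no p-value was computed.

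The ER folds secreted and membrane proteins. When unfolded proteins build up there, the sensor IRE1 (encoded by Ern1) cuts the Xbp1 messenger so that it is spliced into the active form, the sensor ATF6 is released to the nucleus, and the kinase PERK phosphorylates the translation factor eIF2. ATF6 and spliced XBP1 raise transcription of chaperones and of proteins that remove misfolded clients, in part through a promoter sequence named the ER stress response element (ERSE). Phosphorylated eIF2 slows translation in general but favours that of Atf4, and ATF4 acts through the C/EBP-ATF response element (CARE) on genes of amino acid supply and on Ddit3, which encodes the transcription factor CHOP. Other kinases that sense amino acid shortage, heme shortage or double-stranded RNA reach the same eIF2 step, and for this reason the pathway is called integrated. Neurons and photoreceptors make large amounts of membrane protein, and this pathway is well studied in retinal degeneration. Gene-level RNA counts record neither the splicing of Xbp1 nor the translation of Atf4.

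Promoter windows of 300 bases, from 250 before to 50 after the gene start, were available from RefSeq (assembly GRCr8) for 9 of the 10 genes, all but Ern1. They were searched on both strands for ERSE, spelled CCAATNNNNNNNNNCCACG, for CARE, spelled TGATGNAA, and for the unfolded protein response element (UPRE), spelled TGACGTGG. An exact ERSE stood in 0.0657% of 33469 rat promoter windows, 22 in all, and 2 of them were those of Hspa5 and Xbp1. CARE stood in 3.98% of all windows and in those of Chac1, Herpud1 and Trib3, and UPRE in 0.595% of all windows and in none of the 9. A match is a description of the letters in this window and not proof of a working site, and an absent match says only that these letters are not there. The ERSE windows of the 2 genes follow, with 10 bases on each side and the fixed letters in capitals. Both are on the plus strand, Hspa5 at chr3:38452963-38453001 and Xbp1 at chr14:84604548-84604586.
Hspa5: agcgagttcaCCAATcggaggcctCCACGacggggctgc
Xbp1: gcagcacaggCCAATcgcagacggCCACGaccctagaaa

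The CARE windows are shown because the genes that hold them can be set beside Hspa5 and Xbp1 below. They are given in the direction of transcription with the 8 matching letters in capitals, which read as the reverse complement of the motif. Chac1 lies on the plus strand (chr3:126795944-126795991), Herpud1 on the minus strand (chr19:10614864-10614911) and Trib3 on the minus strand (chr3:161275534-161275574).
Chac1: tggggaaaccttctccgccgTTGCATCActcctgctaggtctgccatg
Herpud1: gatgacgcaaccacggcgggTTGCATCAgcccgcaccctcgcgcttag
Trib3: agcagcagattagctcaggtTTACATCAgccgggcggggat

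The levels of the 10 genes covered a wide range, and their order by FPKM (a fragment count that the authors divided by transcript length and library size) was the same in the 3 libraries. Atf4 was the most abundant, at 285 FPKM in Buffer, 293 with Saline and 288 with STZ, above 98.5% of the 14886 genes with at least 10 reads in Buffer. Hspa5 followed with 151, 144 and 200, then Xbp1 with 38.4, 36.0 and 49.6 and Ddit3 with 30.7, 28.9 and 35.8. Hspa5, Xbp1 and Ddit3 were highest in the STZ library, and Atf4 was not. Herpud1 had an FPKM of 22.5, 24.7 and 21.5, Dnajb9 10.6, 10.9 and 8.91, Asns 6.74, 8.06 and 8.65, and Ern1 6.32, 6.68 and 6.21. The neighbours Dnajb9 and Asns nearly met in the STZ library, and Asns and Ern1 in the Buffer library, and with 1 library each no spread is at hand to separate them. Chac1 stood at 1.97, 1.94 and 1.97, and Trib3 was the lowest at 0.49, 0.38 and 0.72, above 8.09% of genes in Buffer.

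**Figure D1:**
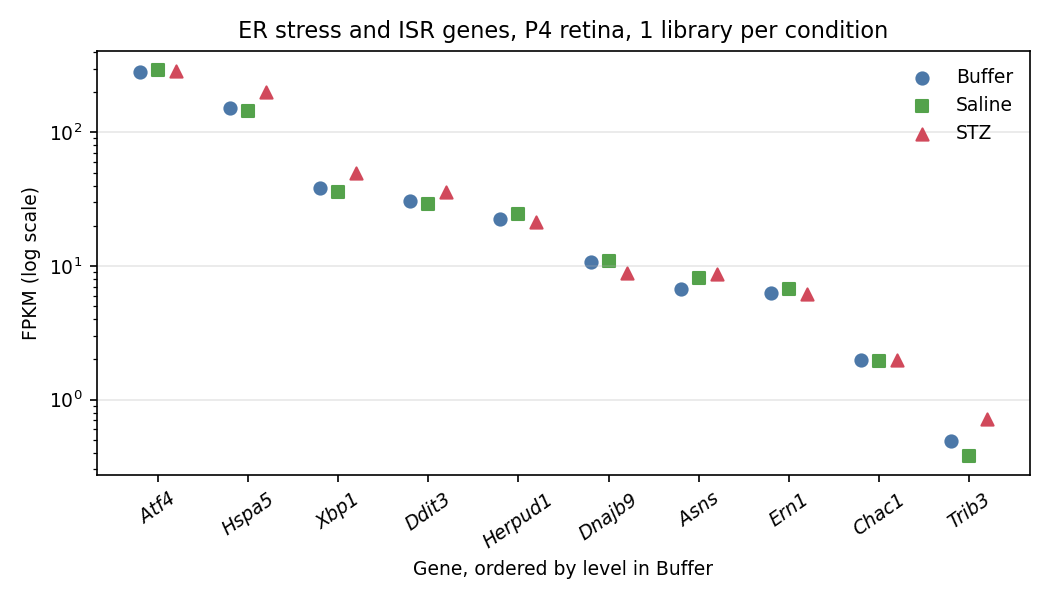
FPKM of the 10 genes on a log axis, with 1 point per library (Buffer circles, Saline squares, STZ triangles) and no error bar since each condition is 1 library. The STZ point of Hspa5 (200) and of Xbp1 (49.6) stands above both controls, while those of Atf4 (285, 293 and 288) nearly coincide.

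The study called a gene deregulated when (FPKM + 1)/(FPKM + 1) between STZ and Buffer was below 0.65 or above a value close to the reciprocal of 0.65. By this rule 0 of the 10 genes were called in STZ against Buffer, where 3.29% of all genes were. None were called in STZ against Saline (3.78% of all genes) or in Saline against Buffer (1.43%). Smaller differences were read from the counts, by dividing the gene's share of all reads in the first library by its share in the second. The exact 95% interval of this ratio by the Clopper-Pearson method is called the counting interval here. It covers counting error only and says nothing of the variation between animals. Reads counted without molecular identifiers may be copies of 1 molecule, and the interval is then too narrow even for counting error. In 9 of the 10 genes the whole interval of each of the 3 ratios lay between these thresholds. The exception was Trib3, where the depth does not exclude a change of that size.

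Hspa5 encodes BiP (GRP78), the main ER chaperone of the Hsp70 family and the protein that holds the stress sensors inactive. It had 7750 reads with Buffer, 7386 with Saline and 10260 with STZ. The STZ library was clearly the highest, and the controls lay close together. The fold was 1.32 against Buffer and 1.38 against Saline, and the count ratios were 1.32 (counting interval 1.28 to 1.36) and 1.39 (1.34 to 1.43). Between the controls, Saline was slightly lower than Buffer, at 0.954 (0.924 to 0.985). Of the 14886 genes, 88.1% had a lower ratio of STZ to Buffer than Hspa5. Of the 3134 reads by which the 10 genes together were higher in STZ than in Buffer, 2510 were reads of Hspa5. Without it the sum was 11972 with Buffer, 12253 with Saline and 12596 with STZ.

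Xbp1 encodes the transcription factor downstream of IRE1, and its gene is itself a target of ATF6. It had 1359 reads with Buffer, 1274 with Saline and 1758 with STZ. As with Hspa5, STZ was above both controls and Saline was the lowest. The count ratio was 1.29 (1.20 to 1.39) against Buffer and 1.38 (1.28 to 1.48) against Saline. The ratio of Saline to Buffer was 0.938, with an interval that included 1 (0.868 to 1.01), though with TMM or DESeq2 factors it lay below 1. The counts do not separate spliced from unspliced Xbp1.

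The 2 other genes of the IRE1 arm did not share this pattern. Ern1, the sensor itself, had 947 reads with Buffer, 1001 with Saline and 933 with STZ. Its ratios of 0.983 against Buffer (0.898 to 1.08) and 0.930 against Saline (0.850 to 1.02) had intervals that included 1. Dnajb9 encodes ERdj4, an ER co-chaperone of BiP and a well-known target of spliced XBP1. It had 396, 405 and 333 reads in the Buffer, Saline and STZ libraries and was lower in STZ than in either control, while the controls were nearly equal. The ratio was 0.839 against Buffer (0.723 to 0.974) and 0.820 against Saline (0.707 to 0.951), on the other side of 1 from Hspa5 and Xbp1.

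Herpud1 encodes an ER membrane protein that takes part in ER-associated degradation, the removal of misfolded proteins. It had 813 reads in Buffer, 896 in Saline and 779 in STZ, so the highest library was Saline. The ratio was 0.957 against Buffer (0.866 to 1.06) and 0.867 against Saline (0.787 to 0.956). Saline stood at 1.10 of Buffer (1.00 to 1.21), and with TMM or DESeq2 factors this interval included 1. The call of a lower value in STZ was made against Saline and not against Buffer.

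Atf4, the transcription factor at the centre of the ISR, had 7390 reads with Buffer, 7576 with Saline and 7484 with STZ. The STZ library lay between the controls. The ratio was 1.01 against Buffer (0.979 to 1.04) and 0.985 against Saline (0.954 to 1.02). At this depth counting error leaves room for a difference of only a few percent between the STZ and Buffer libraries in either direction. Variation between animals is not covered. The level of the Atf4 messenger does not show how much ATF4 protein was made.

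Ddit3, which encodes CHOP, had 669 reads with Buffer, 660 with Saline and 816 with STZ. The controls were almost equal and STZ was above both. The count ratio was 1.22 against Buffer (1.10 to 1.35) and 1.23 against Saline (1.11 to 1.37), and 0.987 between Saline and Buffer (0.885 to 1.10). The FPKM fold against Buffer was smaller, 1.16, because the number of reads per unit of FPKM for this gene was 1.05 times as large in STZ and in Saline as in Buffer. Ddit3 also overlaps Mars1, a tRNA synthetase gene, in RefSeq's annotation. Reads of overlapping genes may not be told apart, and Mars (the symbol in the deposited table) had 3132, 2718 and 3209 reads. The part of this overlap in the Ddit3 values was not tested. In all, 4 of the 10 genes overlap another RefSeq gene (the others are Herpud1, Dnajb9 and Ern1), but only the partner of Ddit3 is in the deposited table.

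Asns encodes asparagine synthetase, a target of ATF4 in amino acid shortage. It had 327 reads in Buffer, 374 in Saline and 416 in STZ, with Saline between the others. The ratio was 1.27 against Buffer (1.10 to 1.47), but 1.11 against Saline with an interval that included 1 (0.963 to 1.28). Saline was itself at 1.14 of Buffer (0.984 to 1.33).

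Trib3 and Chac1, both strongly induced by ATF4 and CHOP in many cell types, had few reads. Trib3, a pseudokinase that feeds back on ATF4, had 13 reads with Buffer, 10 with Saline and 19 with STZ. STZ was the highest, yet the ratios of 1.46 against Buffer (0.684 to 3.21) and 1.90 against Saline (0.839 to 4.56) had intervals that included 1, so a difference was not detectable at this depth. Chac1, which encodes an enzyme that degrades glutathione, had 58, 57 and 58 reads. Its 3 libraries were practically equal, with ratios of 0.998 (0.682 to 1.46) and 1.01 (0.692 to 1.49) to Buffer and Saline.

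**Figure D2:**
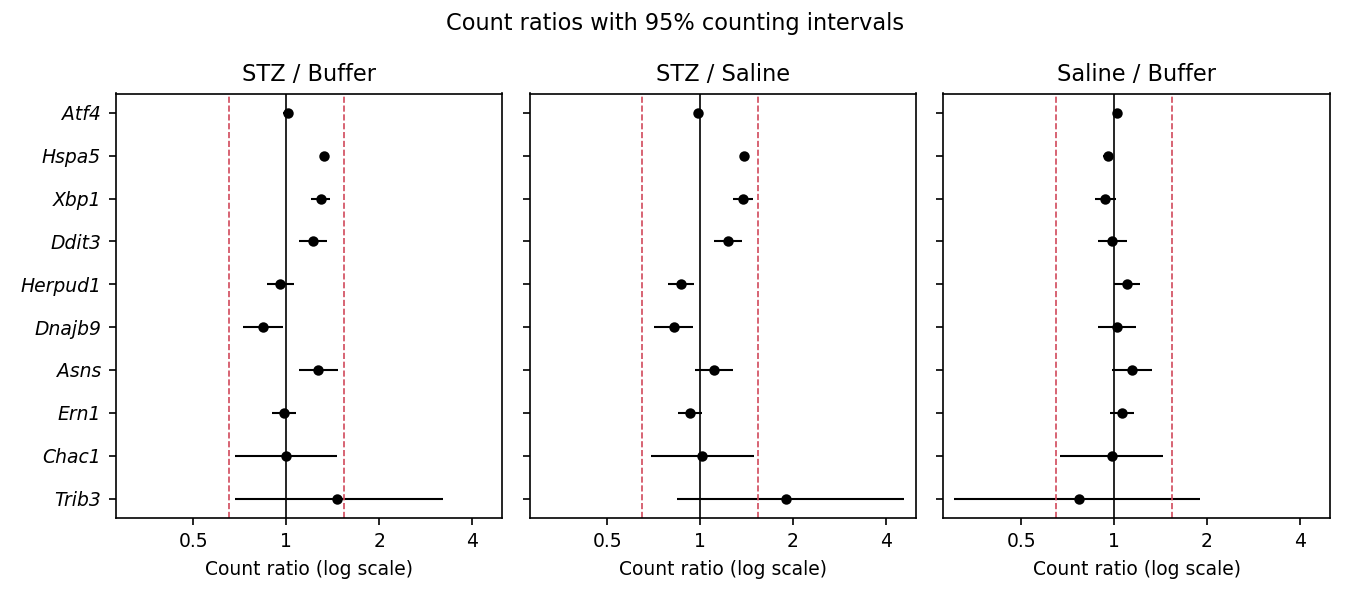
Ratio of read shares for each of the 10 genes in the panels STZ / Buffer, STZ / Saline and Saline / Buffer, on a log axis with 95% counting intervals; dashed lines mark the thresholds that the study set on FPKM folds, the lower at 0.65. Hspa5, Xbp1 and Ddit3 lie to the right of 1 in both STZ panels, Dnajb9 lies to the left, and Trib3 (13, 10 and 19 reads) has the widest intervals.

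Counted together, 4 of the 10 genes (Asns, Ddit3, Hspa5 and Xbp1) had a counting interval above 1 in STZ against Buffer, where 26.2% of the 14886 genes had one, and 1 (Dnajb9) had an interval below 1, against 18.8% of genes. In STZ against Saline, 3 were above (Ddit3, Hspa5 and Xbp1, with 26.9% of genes) and 2 below (Dnajb9 and Herpud1, with 23.5%). In Saline against Buffer, 1 was above (Herpud1, with 15.9%) and 1 below (Hspa5, with 12%). Both intervals of STZ were above 1 for 3 of the 10 genes, where this held for 19.4% of all genes, and below 1 for 1 gene, where it held for 14.8%. By the share of reads alone, STZ was above both controls for 5 genes (44.9% of all genes) and below both for 3 (35.5%). With 10 genes, these numbers lie near the shares over all genes, and the count of members is no result of its own. The median log2 count ratio of the 10 genes was 0.15 in STZ against Buffer and 0.09 against Saline, beside 0.04 and 0.02 over all genes with at least 10 reads.

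Hspa5 and Xbp1 belong to the genes with an exact ERSE, a group set by promoter letters, though the element was chosen with the values of these genes known. Of the 22 windows with an ERSE, 17 belonged to genes in the deposited table and 16 to genes with at least 10 reads. In STZ against Buffer, 9 of these 16 had a counting interval above 1 and 3 below, where 26.5% and 18.8% of the 11543 genes with a promoter window and at least 10 reads did. Against Saline, 10 were above and 2 below, where 27.3% and 23.6% of those genes were. The median count ratio of the 16 was 1.14 against Buffer and 1.15 against Saline, beside 1.03 and 1.01 over the 11543 genes. Without Hspa5 and Xbp1, 7 of the other 14 genes were above 1 and 3 below against Buffer, with a median of 1.08, and 8 were above and 2 below against Saline, with a median of 1.11. Of the 16, 6 are also in the list of ER chaperones described below, so these groups are not independent. Outside these 6 and Hspa5 and Xbp1, Zfand2a (1.16) and Ppm1l (1.15) were above 1 against Buffer. Hnrnpa3 (0.977), Birc5 (0.830) and Derl3 (0.583) were below, and Ankmy2, Zfp57 and Pan2 had intervals that included 1. Against Saline, Zfand2a, Ppm1l and Ankmy2 were above 1, and Pan2 and Birc5 below. The intervals above 1 thus lay mostly in Hspa5, Xbp1 and the chaperones. For CARE the 232 genes had median ratios of 1.02 to Buffer and 1.01 to Saline, near those of all genes, and for UPRE the 100 genes had medians of 1.04 and 1.00.

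The 5 genes of the 16 with the largest ratio of STZ to Buffer were Hsp90b1, Hspa5, Dnajc3, Xbp1 and Calr, and the elements of the other 3 are shown for comparison with those above. Hsp90b1 (chr7:23012441-23012479, minus strand) encodes GRP94, the ER member of the Hsp90 family. Dnajc3 (chr15:102432524-102432562, plus strand) encodes P58IPK, a co-chaperone of BiP, and Calr (chr19:40213125-40213163, plus strand) encodes the calcium-binding chaperone calreticulin. The element of Calr reads in the opposite direction, so its capitals are the reverse complement.
Hsp90b1: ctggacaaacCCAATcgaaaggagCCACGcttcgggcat
Dnajc3: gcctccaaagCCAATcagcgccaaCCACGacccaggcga
Calr: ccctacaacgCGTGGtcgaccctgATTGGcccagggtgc

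Hsp90b1 had 13714 reads with Buffer, 12532 with Saline and 18575 with STZ, a ratio of 1.35 against Buffer (1.32 to 1.38) and 1.48 against Saline (1.45 to 1.51). Calr had 10930, 10448 and 13388 reads, with ratios of 1.22 (1.19 to 1.25) and 1.28 (1.25 to 1.31). Dnajc3 had 381, 389 and 503 reads, with ratios of 1.32 (1.15 to 1.51) and 1.29 (1.13 to 1.48). In these 3 genes, too, STZ was above both controls. Not all 16 shared the direction. Birc5, which encodes the mitotic protein survivin, had 462, 460 and 384 reads and a ratio of 0.830 against Buffer (0.723 to 0.952). Derl3, an ER degradation gene, had 154, 93 and 90 reads, a ratio of 0.583 against Buffer (0.445 to 0.762) and 0.965 against Saline (0.714 to 1.30). Its counts were in part fractional. The controls differed as well. In Saline against Buffer, 5 of the 16 had an interval below 1 and 1 above, where 12% and 15.9% of the 11543 genes did. The median ratio of the 16 was 0.955, and with TMM or DESeq2 factors in place of library totals 9 were below.

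**Figure D3:**
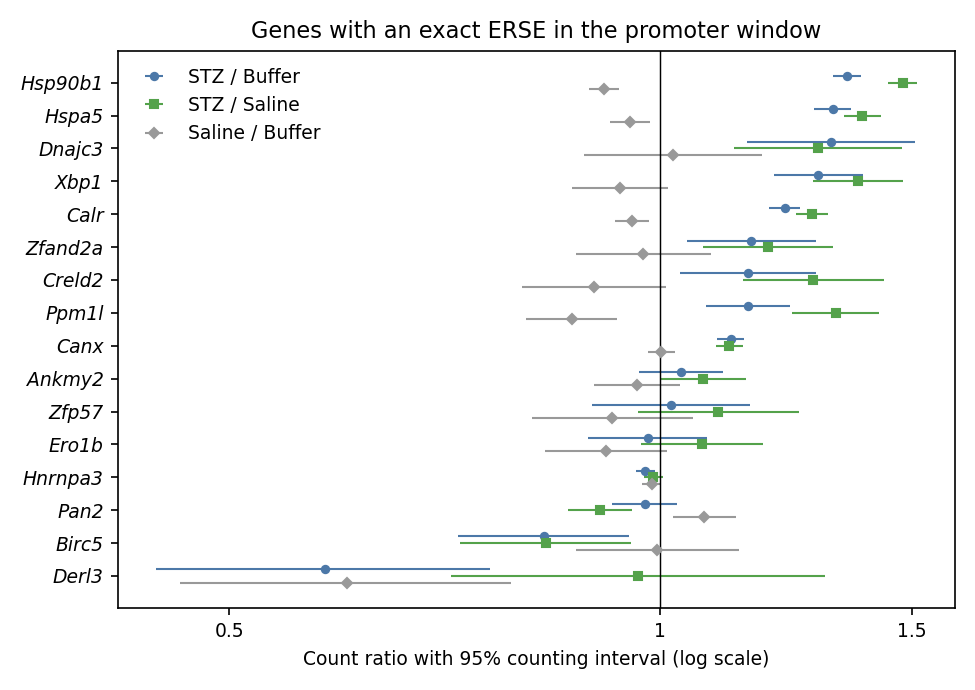
Ratio of read shares, with 95% counting intervals on a log axis, for the 16 genes whose promoter window holds an exact ERSE (STZ to Buffer circles, STZ to Saline squares, Saline to Buffer diamonds). In 9 genes, from Hsp90b1 down to Canx, both STZ intervals lie above 1, and Birc5 lies below 1 in both.

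The rest of the pathway was read from lists that hold none of the 10 genes. Their counts stand beside the shares of all genes given above, 26.2% above 1 and 18.8% below in STZ against Buffer, 26.9% and 23.5% against Saline, and 19.4% and 14.8% in both, and their medians beside log2 ratios of 0.04 and 0.02. Among 19 measured ER chaperones and folding enzymes, 14 had a counting interval above 1 in STZ against Buffer and 0 below. Against Saline, 15 were above and 0 below, and 13 were above in both. With TMM or DESeq2 factors, 13 were above against Buffer and 14 against Saline. The median log2 count ratio was 0.17 against Buffer and 0.23 against Saline. None of the 19 passed the study's thresholds. Besides Hsp90b1 and Dnajc3, the third largest ratio to Buffer was that of Pdia4, a protein disulfide isomerase, with 2073, 1758 and 2544 reads and ratios of 1.23 (1.16 to 1.30) to Buffer and 1.44 (1.358 to 1.535) to Saline. At the other end were Ero1b, Sil1 and Ppib, with ratios to Buffer of 0.981 (0.891 to 1.08), 0.984 (0.774 to 1.25) and 1.02 (0.963 to 1.07). The controls were not alike for this list. In Saline against Buffer, 7 of the 19 had an interval below 1 and 1 above, where 12% and 15.9% of all genes did. With TMM or DESeq2 factors, 10 of the 19 were below. Pdia4 stood at 0.849 (0.796 to 0.905). STZ was above both controls in the 13 genes all the same.

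The list of ER-associated degradation, the group of Herpud1, was mixed. Of 18 genes, 5 had an interval above 1 in STZ against Buffer and 2 below, and against Saline 5 were above and 3 below. Edem2 and Edem1, which direct misfolded glycoproteins to degradation, lay on opposite sides. Edem2 had 584, 556 and 730 reads (here and below in the order Buffer, Saline, STZ) and a ratio to Buffer of 1.25 (1.12 to 1.39), and Edem1 had 1443, 1485 and 1201 reads and a ratio of 0.831 (0.769 to 0.898). Among 19 genes of the translocon and of ER export, 9 were above 1 and 0 below against Buffer, and 7 above and 2 below against Saline. The largest ratio there was that of Sec11c, a signal peptidase subunit, at 1.26 (1.11 to 1.43).

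The stress sensors, the kinases and the eIF2 genes were mixed. Of 17 sensors and eIF2 genes, 5 were above 1 and 3 below in STZ against Buffer, and 3 above and 3 below against Saline. The median log2 count ratio was -0.03 and -0.01. Higher than in both controls were Eif2b3, a subunit of the eIF2 exchange factor, at 1.14 (1.03 to 1.28) and 1.21 (1.08 to 1.34), Atf6, the sensor introduced above, at 1.11 (1.06 to 1.17) and 1.19 (1.14 to 1.25), and Mbtps2, a protease that cuts ATF6, at 1.12 (1.02 to 1.23) and 1.16 (1.06 to 1.28). Lower than in both were Ppp1r15b, Eif2b1 and Mbtps1. Mbtps1 had 5783, 6110 and 5250 reads and ratios of 0.906 (0.873 to 0.941) and 0.857 (0.826 to 0.890). It lay on the other side of 1 from Mbtps2. Atf6b had ratios of 1.01 (0.958 to 1.07) and 1.05 (0.989 to 1.11), with intervals that included 1. Atf6, Atf6b, Mbtps2, Eif2ak3 and Ppp1r15a were named after their values were seen. Eif2ak3 encodes PERK, and Ppp1r15a encodes the eIF2 phosphatase subunit GADD34 and is a CHOP target. Eif2ak3 had 1191, 1344 and 1254 reads, a ratio of 1.05 to Buffer (0.970 to 1.14) and 0.931 to Saline (0.861 to 1.01). Ppp1r15a had 383, 398 and 362 reads, with ratios of 0.944 (0.815 to 1.09) and 0.907 (0.785 to 1.05). Both lay within counting error of both controls. Ppp1r15b, the constitutive partner of that phosphatase, had 2565, 2850 and 2311 reads, a ratio of 0.899 to Buffer (0.850 to 0.952) and 0.809 to Saline (0.765 to 0.855).

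Downstream of ATF4, the list of amino acid supply was also mixed. Of 19 genes, 8 were above 1 and 5 below in STZ against Buffer, but 3 above and 5 below against Saline. Psph, an enzyme of serine synthesis, had 386, 393 and 505 reads and ratios of 1.31 (1.14 to 1.50) to Buffer and 1.28 (1.12 to 1.47) to Saline. Slc38a2, a neutral amino acid transporter that is an ATF4 target, had 5920, 6327 and 4694 reads and ratios of 0.792 (0.762 to 0.823) and 0.740 (0.713 to 0.769). These 2 genes lay on opposite sides of both controls. Of 20 tRNA synthetases, a group with many ATF4 targets, 9 were above 1 and 2 below against Buffer, and 15 above and 0 below against Saline. In Saline against Buffer 11 of the 20 were below 1 and 0 above, where 12% and 15.9% of all genes were. The count against Saline was thus larger where Saline itself was low. Wars, the tryptophan enzyme, had the largest ratio to Buffer, 1.23 (1.16 to 1.31), from 2002, 1985 and 2468 reads.

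The widest ratios stood in the list of stress transcription factors and effectors, and they ran both ways. Of 17 genes with at least 10 reads, 5 were above 1 and 4 below in STZ against Buffer, and 8 above and 4 below against Saline. Past the study's thresholds against both controls were Bbc3 and Pmaip1, which encode the BH3-only proteins PUMA and NOXA and are also p53 targets, on the higher side, and Ddit4 and Bcl2l11 on the lower. Pmaip1 had 2, 5 and 26 reads and a ratio to Buffer of 13.0 with a wide interval (3.25 to 113). Sesn2, a target of both ATF4 and p53, had 451, 512 and 785 reads, with folds of 1.66 against Buffer and 1.48 against Saline, the latter short of the threshold. Ddit4, which encodes the mTOR inhibitor REDD1 and is induced by ATF4 and by hypoxia, had 5072, 4767 and 2975 reads, with folds of 0.588 and 0.624 relative to Buffer and to Saline. Bcl2l11 encodes BIM, a BH3-only protein that CHOP can induce, and had 684, 735 and 439 reads and a count ratio to Buffer of 0.641 (0.567 to 0.723). Tnfrsf10b, a death receptor gene and CHOP target, had 25, 23 and 8 reads, a ratio of 0.319 (0.125 to 0.731).

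A pair of transcription factors of the same family as ATF4 was named after the values were seen. Atf5 had 564, 649 and 792 reads, a ratio of 1.40 to Buffer (1.26 to 1.56) and 1.22 to Saline (1.10 to 1.35). Atf3 had 26, 15 and 43 reads, partly as fractional counts, a ratio of 1.65 to Buffer (0.992 to 2.80) and 2.86 to Saline (1.56 to 5.54). Atf3 stood at 0.71, 0.41 and 1.17 FPKM, far below Atf4. For Cebpb, Cebpg, Jdp2 and Nfil3 of the same list, also named after their values were seen, no interval lay above 1 against either control. Nfil3 was lower, at 0.883 (0.790 to 0.986) and 0.738 (0.663 to 0.821), and the others had intervals that included 1 against both.

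Chaperones outside the ER were read for comparison. Of 13 heat shock genes of the cytosol and mitochondria, 6 were above 1 and 0 below in STZ against Buffer, and 8 above and 1 below against Saline. The median log2 count ratio was 0.11 against Buffer and 0.17 against Saline. Hsp90aa1 had 37191, 35732 and 47562 reads, in part fractional, and ratios of 1.28 (1.26 to 1.29) and 1.33 (1.31 to 1.35), close to those of Hspa5. Hspa8, the constitutive cytosolic Hsp70, had 21415, 19272 and 25610 reads and ratios of 1.19 (1.17 to 1.22) and 1.33 (1.30 to 1.35). Higher read shares in STZ were therefore not found among ER chaperones alone.

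**Figure D4:**
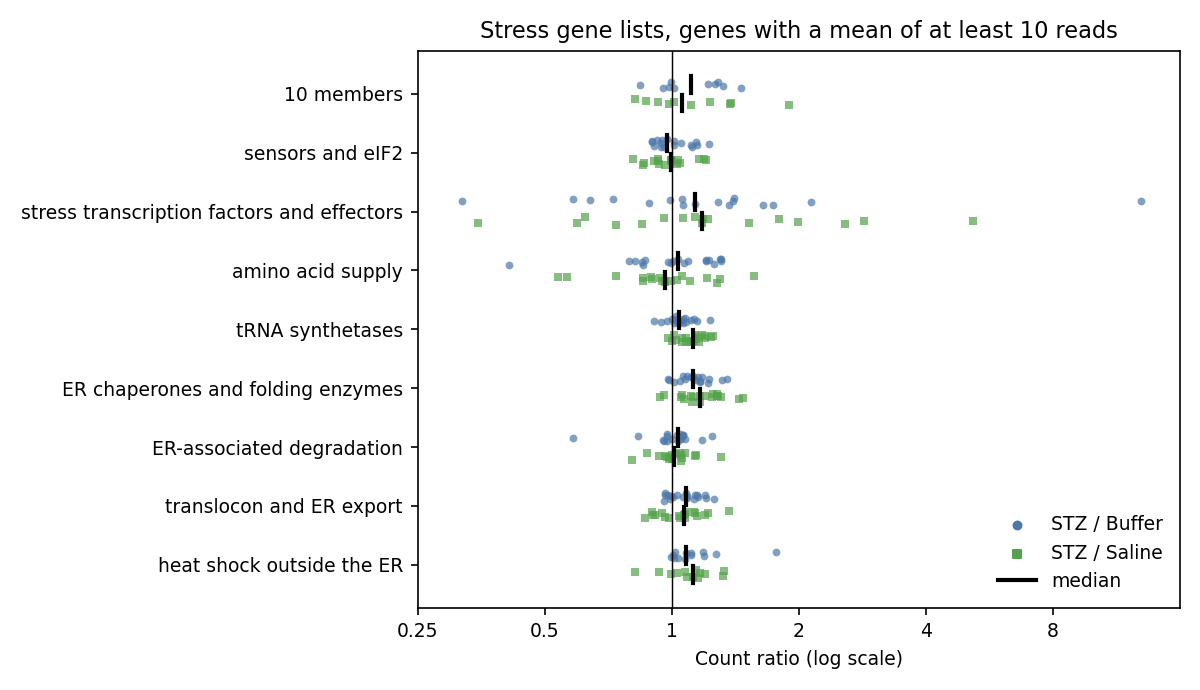
Ratio of read shares in STZ against Buffer (circles) and against Saline (squares), on a log axis, for the 10 genes and for each list, 1 point per gene with a mean of at least 10 reads; black bars are medians. The ER chaperones lie mostly right of 1 (14 of 19 with an interval above 1 against Buffer), and the stress transcription factors and effectors spread most widely, from Tnfrsf10b (0.319) to Pmaip1 (13.0).

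In whole retinas, fewer cells of a type and less RNA per cell cannot be told apart, and the make-up of the libraries differed. Defining retinal markers were abundant in each library, and Pax6 had 12271, 12506 and 12605 reads and Crx 12972, 11780 and 13849. The reads of 7 progenitor markers summed to 53868 with Buffer, 55423 with Saline and 40180 with STZ, with 6 of 7 below 1 in STZ against both controls. Those of 6 amacrine and horizontal cell markers summed to 14363, 13333 and 17629, mostly of Tfap2b (10366, 9688 and 12763). Of the 6, 3 were above 1 and 1 below against both controls. The gene below was Onecut2, at 0.644 of Buffer (0.488 to 0.846) and 0.740 of Saline (0.556 to 0.981). Those of 8 microglia markers summed to 1316, 1592 and 3582, with 8 of 8 above 1 against both controls. For 5 endothelial markers the reads summed to 13580, 14951 and 10082, with 5 of 5 below 1 against both controls. Nearly all of these reads were of Kdr (13149, 14564 and 9972), at a ratio to Buffer of 0.757. The other endothelial markers had lower ratios to Buffer, with Pecam1 at 0.524, Tek at 0.285, Cdh5 at 0.235 and Cldn5 at 0.196. Lens markers summed to 232, 537 and 2544 over 7 genes. Most of the STZ reads were of crystallins, with Cryaa at 55, 211 and 928 and Cryba1 at 22, 62 and 731. Crygd had 25, 56 and 519 reads and Crygc 6, 22 and 181. The other lens markers did not follow them, with Mip at 73, 73 and 86, Bfsp1 at 50, 105 and 90 and Lim2 at 1, 8 and 9. Pigment epithelium markers, where Rpe65 was at 0 reads in Buffer, summed to 754, 1479 and 726, and ciliary and iris markers to 2183, 8085 and 2244. Astrocyte markers summed to 1073, 1098 and 520, blood to 464, 589 and 342, and ganglion cells to 4500, 4303 and 5188. Photoreceptor precursor markers summed to 42501, 40027 and 42569, but single genes moved in opposite directions. Of these 6 genes, 4 were above 1 and 2 below against both controls. Rcvrn stood at 1.63 of Buffer (1.51 to 1.76) and Prdm1 at 0.857 (0.831 to 0.884). For plasma cells, which carry much ER, 3 markers had 377, 434 and 388 reads, nearly all of Sdc1 (358, 409 and 374). The other markers, Mzb1 (19, 22 and 13) and Tnfrsf17 (0, 3 and 1), had few reads. These counts do not show that plasma cells were present. The part of cell make-up in the values of Hspa5, Xbp1, Ddit3, Dnajb9 and the chaperones was not tested.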

How the data were processed

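The authors trimmed the reads, mapped them with TopHat2 with up to 2 mismatches, and discarded reads with several genomic locations. The submitters' processing notes name FastQC, TopHat2 and the build rn6, and the annotation is not given in the sources used here. The deposited table holds FPKM, TPM and an estimated count per gene and library. The deposited estimated counts were rounded, and their totals were 21992701 (Buffer), 21977846 (Saline) and 22031241 (STZ). The series table and the library tables held the same values (largest difference 0). Folds followed the formula of the methods with a pseudocount of 1. Deposited TPM entered the alternatives only. Count ratios carry exact Clopper-Pearson 95% intervals. Scaling alternatives used edgeR 4.0.16 (TMM factors) and DESeq2 1.42.0 (size factors) in R 4.3.3, with no count model fitted. The other work used Python 3.11.15, numpy 2.4.6, pandas 2.3.3, scipy 1.17.1 and matplotlib 3.10.9. Interval and ratio calculations were tested on simulated data. The 10 genes and the lists (8 pathway and 12 marker lists) were chosen with earlier results of these data known. Named list genes were those past both thresholds against both controls and the 3 largest and 3 smallest ratios to Buffer; of these, those the text turns on are printed. All 10 symbols matched RefSeq. Promoter matches were searched in RefSeq windows of GRCr8, whose coordinates do not apply to rn6, and genes with an ERSE were selected by their letters after the values were known.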

Additional observations from a re-analysis of the deposited data

How the results depend on the processing

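No paired analysis was possible because each condition has 1 library, and for the same reason no replicate could be left out. In all, 190 folds of the 10 genes were recomputed under another pseudocount, filter, unit, scaling or control. The filter could change no fold, because all 10 genes passed it. Of the 190, 0 moved by more than the relative width of the counting interval, laid around the fold itself. A threshold was passed by 1 of them. With a pseudocount of 0.1, Trib3 reached 1.71 in STZ against Saline, so 1 gene rather than 0 was called. With the mean of both controls in place of Buffer, 2 genes (Dnajb9 and Herpud1) rather than 1 were lower in STZ. With TMM or DESeq2 factors, Saline against Buffer had 0 genes higher and 2 lower (Hspa5 and Xbp1), against 1 and 1. In that comparison 9 rather than 5 ERSE genes and 10 rather than 7 ER chaperones were then lower. These factors reduce the ratios of STZ to Buffer by 1.03 times. Leaving Hspa5 and Xbp1 out of the ERSE genes, the scaling of ERSE genes and ER chaperones, and the restriction to whole counts, were chosen after the data were seen. Depth limits Trib3 (10 to 19 reads) and Chac1 (57 to 58 reads).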

Other observations

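Slc7a11, which encodes the cystine transporter xCT and is a target of ATF4 and of Nrf2, had 278 reads in Buffer, 496 in Saline and 281 in STZ. It was named after its values were seen. The Saline library stood apart from the others, with a ratio of 1.79 to Buffer (1.538 to 2.075), while STZ and Buffer were at 1.01 (0.852 to 1.20). Saline was also highest in the pigment epithelium markers (754, 1479 and 726 reads) and in the ciliary and iris markers (2183, 8085 and 2244). The part of this tissue make-up in the Slc7a11 values was not tested. Nck1, an adaptor tied to the dephosphorylation of eIF2, had 376, 479 and 463 reads, a ratio of 1.28 in Saline against Buffer (1.11 to 1.46) and 1.23 in STZ against Buffer (1.07 to 1.41).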
